A study of Homo sapiens with 6 samples.

Results

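The 10 genes described here encode the subunits of the mTOR complexes and the regulators directly above them, namely MTOR, RPTOR, RICTOR, MLST8, DEPTOR, AKT1S1, TSC1, TSC2, RHEB and MAPKAP1. They were chosen by symbol, as the 10 of 57773 genes in the deposited count table whose gene name equals one of these symbols, and all 10 passed the filter on low counts, which left 16290 genes tested. Their mRNA was measured by RNA-seq in SW872, an established human liposarcoma cell line grown in RPMI-1640 with 10% FBS. Cells treated with Apatinib, an oral small-molecule inhibitor of the VEGFR2 tyrosine kinase, at 18 μM for 24 h (3 samples) were compared with untreated control cells (3 samples). All samples came from this one line at one dose and one time, and no vehicle is named for the controls.

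mTOR is a serine/threonine kinase that works in 2 complexes. mTORC1, built around RPTOR (Raptor), is switched on by amino acids and growth factors at the lysosome and drives protein synthesis through S6 kinase and 4E-BP1, while mTORC2, built around RICTOR (Rictor) and MAPKAP1 (mSIN1), phosphorylates AKT. Growth factor signals reach mTORC1 when AKT inhibits the TSC1-TSC2 complex, which otherwise keeps the small GTPase RHEB in its inactive form. The complexes are controlled largely by phosphorylation and location, which RNA-seq does not measure.

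The libraries held 17043314 to 22067558 counts assigned to genes. Controls 1 and 2 were almost alike: their counts differed by a chi-square of 2.27 per gene, where sampling noise alone gives 1 and the other pairs within a group gave 18.2 to 44.5. They may therefore be technical repeats, in which case the controls amount to 2 samples and the p-values given are too small, and with their counts summed 292 genes in place of 1866 passed the test described below. The samples also differed in the balance of GC-rich and GC-poor genes. The median log2 deviation of genes over 58.1% GC minus that of genes under 41.1% GC was 0.60, 0.15 and 0.05 in Apatinib samples 1, 2 and 3. It was -0.45, -0.42 and 0.11 in controls 1, 2 and 3, so control 3 lay among the Apatinib samples. All 5 mesenchymal markers were found at 1 FPKM or more in every sample (VIM at 881 to 1263 FPKM), while of 6 adipocytic markers only PPARG (19.7 to 27.1 FPKM) and LPL (1.54 to 4.45 FPKM) were, and FABP4 and ADIPOQ were at 0.

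Among the 10 genes, RICTOR was lower with Apatinib and passed the test, DEPTOR was measured higher and fell just short of it, and the other 8 had log2 fold changes of at most 0.20 in size. A differentially expressed gene (DEG) had an FDR under 0.05 over all 16290 genes in edgeR's quasi-likelihood test and a log2 fold change (Apatinib over control) above 0.5 in size. By this rule 0 of the 10 genes rose, against a background of 5.97% of all genes tested, and 1 of 10 fell (RICTOR), against 5.48%. DEPTOR was the 1 gene above 0 with an unadjusted p under 0.05, and it was called higher by DESeq2. In RNA from whole cultures a lower level per cell and fewer cells that carry the mRNA cannot be told apart. In either direction 1 of 10 was a DEG, against 1866 genes or 11.5% of those tested, so that the share among the 10 genes was near the background. Log2 fold changes were above 0 for 5 of the 10 genes and below 0 for 5, with a median of 0.02 and a median size of 0.07, where all genes tested had a median of 0.003 and a median size of 0.27. This split depended on the processing: after a correction of each sample for GC content 8 of the 10 genes were below 0 and only DEPTOR and RHEB above, with a median of -0.14, beside 50.7% of all genes below 0 and a median of -0.006. Leaving out 1 sample gave between 2 genes below 0 (without Apatinib sample 2) and 7 (without Apatinib sample 1). DEPTOR was the 1 gene of the 10 whose CPM values (counts scaled to library size, with TMM factors) did not overlap between the groups, against 5409 genes or 33.2% of all genes.

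**Figure D1:**
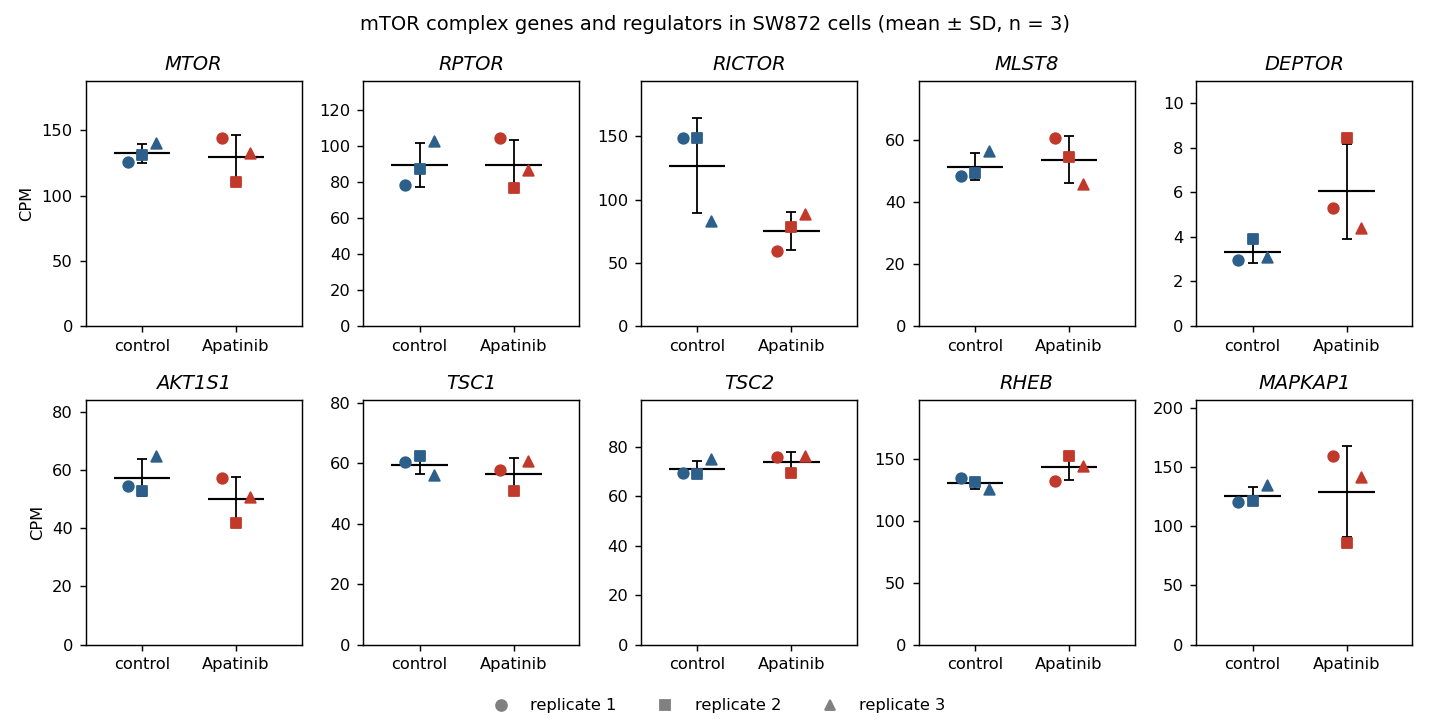
CPM (counts scaled to library size) of each of the 10 genes, one panel per gene with its own axis starting at 0. Points are the 3 Apatinib and 3 control samples with the replicate number given by the marker shape, and lines with error bars mark the group mean ± SD. RICTOR is at 59.0 to 88.5 CPM with Apatinib and at 149, 149 and 83.2 CPM in the controls, and DEPTOR is the 1 gene whose groups do not overlap.

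Of the subunits common to both complexes, MTOR (ENSG00000198793), the kinase itself, was measured at 144, 110 and 133 CPM in Apatinib samples 1, 2 and 3 and at 126, 131 and 140 CPM in controls 1, 2 and 3. The control values lay inside the range of the Apatinib values. The group means were 129 ± 17.3 and 132 ± 7.16 CPM (SD, n = 3 each), and the log2 fold change was -0.04 (95% confidence interval -0.32 to 0.25, FDR = 0.880 by edgeR's quasi-likelihood test). MLST8 (ENSG00000167965), the small WD-repeat protein bound to the kinase domain, was at 60.9, 54.5 and 45.9 CPM with Apatinib and 48.5, 49.5 and 56.5 CPM in the controls. Its groups overlapped as well, and its log2 fold change was 0.06 (interval -0.24 to 0.36).

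DEPTOR (ENSG00000155792), an inhibitor that binds mTOR in both complexes, had the lowest counts of the 10 genes, with 91, 150 and 77 counts in the Apatinib samples and 51, 71 and 68 in the controls. Scaled for depth these were 5.29, 8.47 and 4.41 CPM with Apatinib and 2.94, 3.90 and 3.12 CPM in the controls. Every Apatinib sample was above every control, Apatinib sample 2 was the highest, and the lowest Apatinib sample stood close to the highest control. Group means were 6.06 ± 2.14 CPM (Apatinib) and 3.32 ± 0.512 CPM (control; SD, n = 3 each). The log2 fold change of 0.87 (SE 0.262, 95% confidence interval 0.29 to 1.44), a 1.82-fold higher level, had an FDR of 0.0504 by edgeR's quasi-likelihood test, and DEPTOR was not called. With DESeq2 the FDR was 0.0306 and without Apatinib sample 2 the log2 fold change was 0.55 with an FDR of 0.112 (edgeR), so the side of the threshold depended on the fit.

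Neither mTORC1 subunit passed the test. RPTOR (ENSG00000141564), the scaffold that brings substrates to mTORC1, was at 105, 76.6 and 86.9 CPM with Apatinib and at 78.5, 87.4 and 103 CPM in the controls. Its 2 groups spanned almost the same range, with means of 89.4 ± 14.2 and 89.5 ± 12.2 CPM (SD, n = 3 each) and a 95% confidence interval of the log2 fold change from -0.33 to 0.32. AKT1S1 (ENSG00000204673), which encodes PRAS40, an mTORC1 inhibitor that AKT phosphorylates, was at 57.2, 41.7 and 50.8 CPM with Apatinib and 54.4, 52.9 and 64.8 CPM in the controls. Apatinib samples 2 and 3 were below all controls and Apatinib sample 1 was not. AKT1S1 had a log2 fold change of -0.20 (SE 0.146, interval -0.52 to 0.12, FDR = 0.380 by edgeR's quasi-likelihood test).

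Of the 2 subunits particular to mTORC2, RICTOR fell and MAPKAP1 did not pass the test. RICTOR (ENSG00000164327), the scaffold of mTORC2, was at 59.0, 78.5 and 88.5 CPM in Apatinib samples 1, 2 and 3 (1015, 1390 and 1546 counts). In controls 1, 2 and 3 it was at 149, 149 and 83.2 CPM (2581, 2701 and 1817 counts). Controls 1 and 2 were far above all Apatinib samples, but control 3 lay between Apatinib samples 2 and 3, so the groups overlapped. The means were 75.3 ± 14.97 CPM with Apatinib and 127 ± 37.8 CPM in the controls (SD, n = 3 each). The level was 1.68-fold lower with Apatinib, a log2 fold change of -0.75 (SE 0.218, 95% confidence interval -1.23 to -0.28, FDR = 0.0442 by edgeR's quasi-likelihood test).

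The call for RICTOR held without Apatinib sample 3 (FDR = 0.0491, edgeR) or control 3 and was lost when any of the other 4 samples was left out. Without control 1 the log2 fold change was -0.63 (FDR = 0.177, edgeR) and without control 2 it was -0.63 (FDR = 0.178), whereas without control 3 it was -0.98 (FDR = 0.00216). Leaving out Apatinib sample 1 gave -0.60 (FDR = 0.133) and leaving out Apatinib sample 2 gave -0.77 (FDR = 0.0774). With the counts of controls 1 and 2 summed and used as 1 sample, RICTOR had a log2 fold change of -0.63 and an FDR of 0.176. RICTOR was also the most GC-poor of the 10 genes (36.5% GC in the longest transcript), and its level moved with the GC balance of the samples given above, highest in controls 1 and 2, lowest in Apatinib sample 1 and intermediate in the other 3. After a correction of each sample for GC content the log2 fold change was -0.34 and the FDR 0.0890 (edgeR), and the part of the GC balance in the result beyond this correction was not tested. Over all genes, DEGs that rose had a median GC content of 55.9% and DEGs that fell one of 39.9%, where the genes tested had 48.5%.

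**Figure D2:**
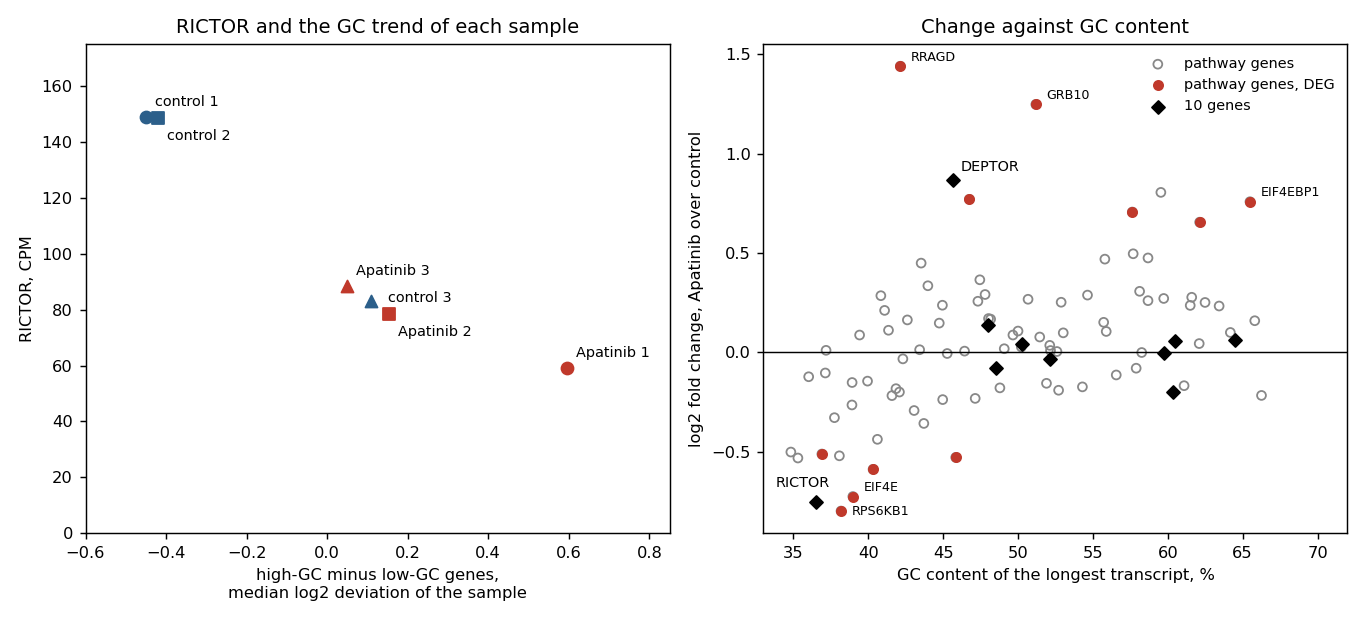
Left, CPM of RICTOR in each sample (y) against the median log2 deviation of GC-rich minus GC-poor genes in that sample (x), circles, squares and triangles being replicates 1, 2 and 3, red Apatinib and blue control. Controls 1 and 2 stand apart at about 149 CPM, and control 3 lies among the Apatinib samples. Right, log2 fold change (y) against GC content in % (x) of the 10 genes (diamonds) and of the pathway genes (circles, filled where DEG), where RICTOR, EIF4E and RPS6KB1 lie at low GC content and EIF4EBP1 at high GC content.

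MAPKAP1 (ENSG00000119487), which encodes mSIN1, the subunit that holds mTORC2 together and binds its substrates, was at 159, 85.9 and 142 CPM with Apatinib and at 121, 121 and 135 CPM in the controls. Apatinib samples 1 and 3 were above all controls and Apatinib sample 2 was below them all. The SD of the Apatinib samples was 38.4 CPM and that of the controls 7.99 CPM (n = 3 each), and the log2 fold change was 0.04 with the widest confidence interval of the 8 genes other than RICTOR and DEPTOR, -0.38 to 0.46. Apatinib sample 2 was the lowest of the 6 samples for 5 of the 10 genes (MTOR, RPTOR, AKT1S1, TSC1 and MAPKAP1), where it was the lowest for 21.6% of all genes tested, and it was the highest for DEPTOR and RHEB, 2 of 10, against 22.5% of all genes.

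None of the 3 regulators upstream of mTORC1 (TSC1, TSC2 and RHEB) passed the test, and 0 had an unadjusted p under 0.05 (edgeR). TSC1 (ENSG00000165699), which encodes hamartin, was at 57.9, 50.8 and 60.7 CPM with Apatinib and 60.3, 62.4 and 56.0 CPM in the controls. TSC2 (ENSG00000103197), which encodes tuberin, the subunit with GTPase-activating function toward RHEB, was at 76.0, 69.5 and 76.3 CPM with Apatinib and 69.4, 69.1 and 74.99 CPM in the controls. Both genes overlapped between the groups, with log2 fold changes of -0.08 for TSC1 (95% confidence interval -0.35 to 0.19) and 0.06 for TSC2 (-0.20 to 0.31). RHEB (ENSG00000106615), the GTPase that activates mTORC1, was at 132, 152 and 144 CPM with Apatinib and 134, 131 and 125 CPM in the controls. Apatinib samples 2 and 3 were above all controls and Apatinib sample 1 was not, and RHEB had a log2 fold change of 0.14 (interval -0.11 to 0.38, FDR = 0.456 by edgeR's quasi-likelihood test).

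The 8 genes other than RICTOR and DEPTOR thus had log2 fold changes from -0.20 to 0.14, and their 95% confidence intervals all lay between -0.52 and 0.46. In linear terms these intervals spanned 0.696- to 1.38-fold as an outer range, within which each gene has its own interval as given above. Their FDR values ran from 0.380 to 0.994 (edgeR). Several of the genes share exon sequence with a neighbour on the opposite strand, and the counting is not stated to use strand. For RICTOR this neighbour was OSMR, with a log2 fold change of -0.02 (FDR = 0.963, edgeR), for MLST8 it was BRICD5 (-0.61, FDR = 0.203) and for AKT1S1 it was TBC1D17 (0.27, FDR = 0.229).

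**Figure D3:**
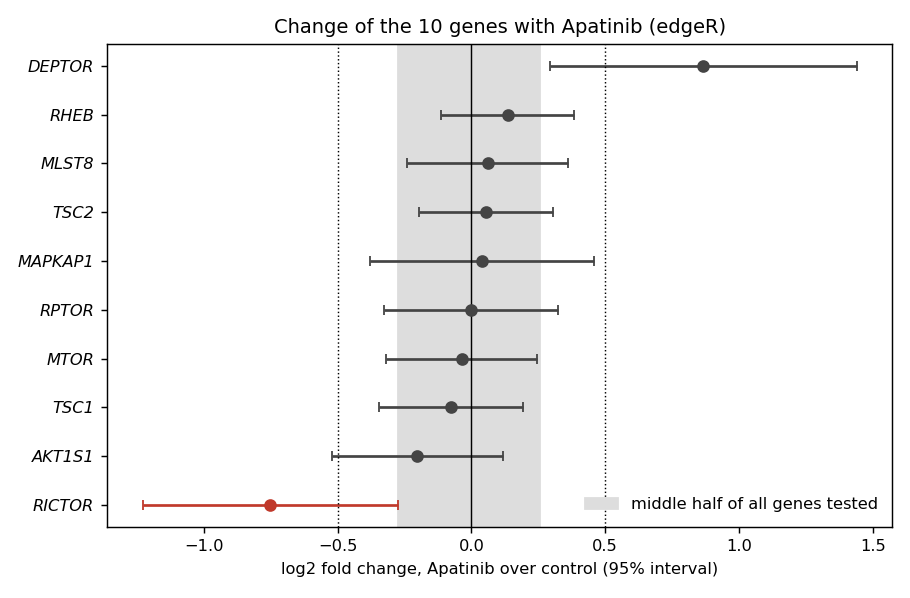
Log2 fold change, Apatinib over control, of each of the 10 genes (x axis) with its 95% confidence interval from edgeR (n = 3 samples a group), the genes being ordered by size along the y axis, with the DEG in red. The grey band holds the log2 fold changes of all genes tested between their quartiles (-0.28 and 0.26), and dotted lines mark the fold limit of 0.5 either way. The intervals of RICTOR (-1.23 to -0.28) and DEPTOR (0.29 to 1.44) do not reach 0 and those of the other 8 genes include it.

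Per transcript length, the mRNAs of the 10 genes differed widely in level. In FPKM (fragments scaled by transcript length and library depth), as means over the 6 samples with the lowest and highest sample in brackets, RHEB was the most abundant at 47.6 (42.2 to 54.9), followed by MAPKAP1 at 28.7 (20.3 to 33.9) and MLST8 at 23.9 (21.1 to 26.8). Next came AKT1S1 at 13.4 FPKM (10.3 to 15.01), RPTOR at 11.9 (10.9 to 13.2), MTOR at 11.3 (10.25 to 11.95) and TSC2 at 11.1 (10.6 to 12.2). RICTOR at 8.72 FPKM (4.81 to 13.7), TSC1 at 6.26 (5.51 to 6.94) and DEPTOR at 1.35 (0.855 to 2.49) were the lowest. The highest mean was 35.2-fold the lowest. Of the 9 neighbouring pairs in this order 3 had ranges that did not overlap, RHEB and MAPKAP1, MLST8 and AKT1S1, and TSC1 and DEPTOR, while the ranges over the 6 samples overlapped for neighbours among the 6 genes from AKT1S1 to TSC1 and for MAPKAP1 and MLST8. RICTOR stood 7th by its control mean of 10.98 ± 3.69 FPKM and 8th by its Apatinib mean of 6.47 ± 1.44 FPKM (SD, n = 3 each).

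**Figure D4:**
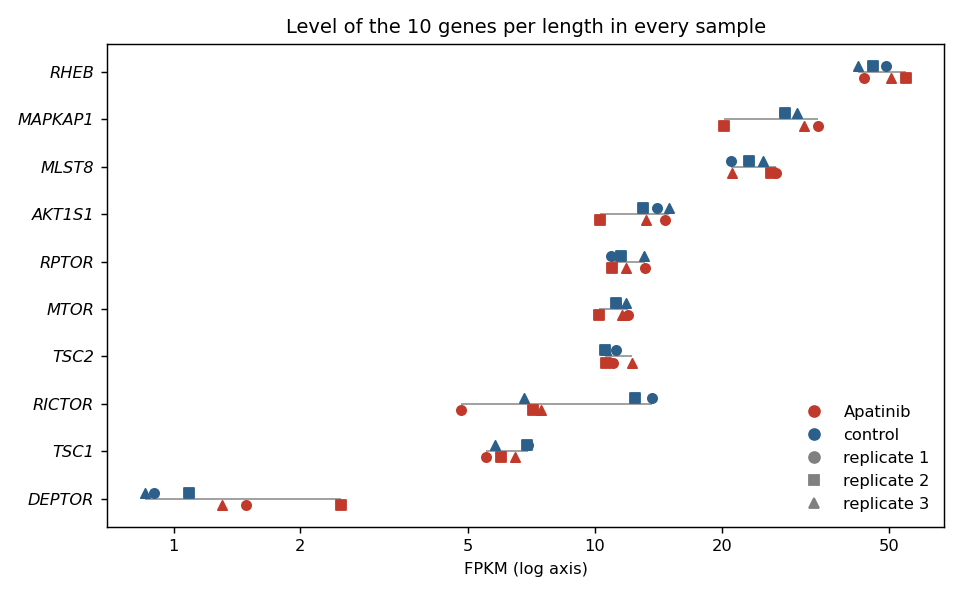
FPKM (log axis) of the 10 genes in the 6 samples, ordered by their mean over all samples. Points are samples, red for Apatinib and blue for control, with the replicate given by the marker shape, and the grey line spans the 6 samples. RHEB is at 42.2 to 54.9 FPKM and DEPTOR at 0.855 to 2.49 FPKM, and neighbours among the 6 genes from AKT1S1 to TSC1 overlap.

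Ratios of FPKM within a sample described the balance of partner subunits, with no test. The log2 ratio of RPTOR to RICTOR, the scaffolds of mTORC1 and mTORC2, was 1.45, 0.62 and 0.67 in Apatinib samples 1, 2 and 3 and -0.33, -0.11 and 0.95 in controls 1, 2 and 3. RPTOR mRNA was therefore above RICTOR mRNA in all 3 Apatinib samples and in control 3, and below it in controls 1 and 2. The mean log2 ratio was 0.91 ± 0.468 with Apatinib and 0.17 ± 0.685 in the controls (SD, n = 3 each), and the groups overlapped. For RICTOR to MAPKAP1, both of mTORC2, the log2 ratio was -2.82, -1.51 and -2.07 with Apatinib and -1.04, -1.18 and -2.16 in the controls, again with control 3 among the Apatinib samples. For TSC1 to TSC2 it was -1.003, -0.829 and -0.923 with Apatinib and -0.697, -0.616 and -0.876 in the controls. The Apatinib mean was lower by a log2 ratio difference of -0.19, and the groups overlapped. RPTOR to its inhibitor AKT1S1 was at log2 ratios of -0.16, 0.09 and -0.16 with Apatinib and -0.37, -0.18 and -0.20 in the controls, which did not overlap but differed by 0.17 on average.

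Around the complexes, 91 pathway genes in 5 lists were examined in the same fit, of which 85 passed the filter on low counts. Of these 6 rose and 5 fell, 12.9% in all against the background of 11.5%, and 33 (38.8%) did not overlap between the groups, against 33.2% of all genes. Log2 fold changes were above 0 for 52 of the 85 genes and below 0 for 33, with a median of 0.08 beside 0.003 for all genes. The 6 that rose had a median GC content of 54.4% and the 5 that fell one of 39.0%. The number of calls depended on single samples of both groups, with 0 pathway DEGs without control 1 (17 of the genes then had an unadjusted p under 0.05 in edgeR), 3 without control 2 and 12 without control 3. In the same fits 1.65%, 1.8% and 15.5% of all genes tested were DEGs. Without Apatinib samples 1, 2 and 3 in turn there were 4, 9 and 11 pathway DEGs, against 4.73%, 8.91% and 12.1% of all genes tested. The calls among all genes thus moved with the sample left out too. The PI3K and AKT list held 0 DEGs without Apatinib sample 1, control 1 or control 2. Of the 6 fits that leave out 1 sample, GRB10, PRKAG2 and RRAGD were called in 5, RPS6KB1 in 4, PIK3CD, PIK3R1, EIF4E and EIF4EBP1 in 3, BMT2 in 2, and PIK3R3 and PRR5 in 1.

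In the PI3K and AKT list, which carries the growth factor signal, 1 of 15 genes tested rose and 2 fell, 20% in all. Of all genes tested 11.5% were DEGs (5.97% higher and 5.48% lower). PIK3CD, the catalytic p110-delta subunit, was at 25.9, 20.7 and 22.4 CPM with Apatinib and 12.5, 14.6 and 15.2 CPM in the controls. All Apatinib samples were above all controls, and the log2 fold change was 0.71 (SE 0.150, FDR = 0.0152 by edgeR's quasi-likelihood test). PIK3R1, which encodes the regulatory subunit p85-alpha, was at 55.3, 75.5 and 71.6 CPM with Apatinib against 111, 106 and 87.6 CPM in the controls, and PIK3R3, the regulatory subunit p55-gamma, was at 20.3, 25.9 and 21.6 CPM against 35.0, 27.7 and 35.2 CPM. Neither gene overlapped between the groups, and the log2 fold changes were -0.59 for PIK3R1 (FDR = 0.0286, edgeR) and -0.53 for PIK3R3 (FDR = 0.0425). The call for PIK3R3 held without Apatinib sample 2 (FDR = 0.0308, edgeR) and was lost when any of the other 5 samples was left out (FDR = 0.0755 to 0.177).

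Of the genes for amino acid sensing at the lysosome, 1 of 30 rose and 1 fell, 6.67% in all against 11.5% of all genes tested. RRAGD, one of the Rag GTPases that bring mTORC1 to the lysosome, had few counts, with 38, 59 and 60 in the Apatinib samples and 12, 29 and 22 in the controls. In CPM these were 2.21, 3.33 and 3.43 against 0.693, 1.595 and 1.008, without overlap, and the log2 fold change of 1.44 (SE 0.332, FDR = 0.0213, edgeR) was the largest among the DEGs of the 5 lists. BMT2, also known as SAMTOR, a sensor of S-adenosylmethionine that inhibits mTORC1, was at 17.1, 17.7 and 21.8 CPM with Apatinib and 28.7, 28.5 and 23.7 CPM in the controls. It fell with a log2 fold change of -0.51 (FDR = 0.0456, edgeR), next to both limits, and was at -0.13 (FDR = 0.441) after the GC correction. FLCN, folliculin, which acts on the Rag GTPases, was at 61.1, 62.3 and 67.3 CPM with Apatinib and 50.3, 42.1 and 45.3 CPM in the controls. Its FDR was 0.0315 (edgeR), but its log2 fold change of 0.47 was under the limit for a DEG.

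Among the energy and stress inputs 1 of 11 genes rose and 0 fell, 9.09% in all against 11.5% of all genes tested. PRKAG2, a regulatory gamma subunit of AMPK, the kinase that restrains mTORC1 at low energy, was at 37.1, 39.0 and 41.6 CPM with Apatinib and 22.5, 26.1 and 20.5 CPM in the controls. The groups were well apart, with a log2 fold change of 0.77 (SE 0.136, FDR = 0.00845 by edgeR's quasi-likelihood test). PRKAA1, the catalytic alpha1 subunit of AMPK, was at 136, 174 and 173 CPM with Apatinib and 263, 258 and 178 CPM in the controls, with a log2 fold change of -0.53 and an FDR of 0.0555 (edgeR) that missed the threshold. PRKAA1 was the 1 gene of this list below 0 with an unadjusted p under 0.05, and DESeq2 called it, but after the GC correction its log2 fold change was -0.10 (FDR = 0.448, edgeR). As for RICTOR, control 3 was the control nearest to the Apatinib samples. GSK3B, a kinase that phosphorylates TSC2, had a log2 fold change of -0.20 (FDR = 0.286, edgeR).

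Of the assembly factors and further partners of the complexes, 1 of 9 genes rose and 0 fell, 11.1% in all against 11.5% of all genes tested. In this list 0 genes were below 0 at an unadjusted p under 0.05 in edgeR, and DESeq2 called 0 lower. PRR5, which encodes Protor-1, a partner of RICTOR in mTORC2, was at 11.4, 10.7 and 9.85 CPM with Apatinib and 6.06, 5.88 and 8.25 CPM in the controls. Its groups did not overlap, and the log2 fold change was 0.66 (SE 0.183, FDR = 0.0395, edgeR), opposite in sign to that of RICTOR. The call for PRR5 held without control 3 (FDR = 0.0125, edgeR) and was lost when any of the other 5 samples was left out (FDR = 0.0519 to 0.181) or with controls 1 and 2 summed (FDR = 0.158). TBC1D7, the other stable subunit of the TSC complex, and TPT1 did not pass the test, with log2 fold changes of 0.29 (FDR = 0.165, edgeR) and 0.33 (FDR = 0.0734).

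Of the substrates and effectors 2 of 20 genes rose and 2 fell, the same share in all as the 3 of 15 in the PI3K and AKT list, where 11.5% of all genes were DEGs. GRB10, an adaptor that mTORC1 phosphorylates and that restrains insulin receptor signalling, was at 81.5, 150.3 and 70.7 CPM with Apatinib and 42.6, 49.8 and 35.1 CPM in the controls. All Apatinib samples were above all controls, with Apatinib sample 2 the highest as for DEPTOR, and the log2 fold change was 1.25 (SE 0.250, FDR = 0.0127 by edgeR's quasi-likelihood test). EIF4EBP1, which encodes 4E-BP1, the repressor of cap-dependent translation that mTORC1 inactivates, was at 98.9, 124.6 and 72.1 CPM against 57.3, 56.3 and 61.2 CPM (log2 fold change 0.76, FDR = 0.0213, edgeR). The cap-binding protein that 4E-BP1 holds, EIF4E, was at 24.3, 23.7 and 31.6 CPM against 47.9, 47.4 and 36.4 CPM (log2 fold change -0.73, FDR = 0.0179). RPS6KB1, which encodes S6K1, the S6 kinase downstream of mTORC1, was at 29.1, 35.6 and 35.8 CPM against 62.5, 67.5 and 45.03 CPM (log2 fold change -0.80, FDR = 0.0140). EIF4EBP1 mRNA was thus higher and EIF4E and RPS6KB1 mRNA lower with Apatinib, each without overlap between the groups, and control 3 was in each case the control nearest to the Apatinib samples.

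With the GC correction, 5 of the 84 pathway genes then tested were DEGs, 4 higher (GRB10, PIK3CD, PRKAG2 and RRAGD) and 1 lower (PIK3R3), and all 5 were also DEGs without it. Calls were fewer among all genes as well, with 1373 of 15819 genes (8.68%) being DEGs in this fit. The log2 fold changes of RPS6KB1 (-0.45, FDR = 0.0152 by edgeR) and EIF4E (-0.41, FDR = 0.0343) kept their direction but were under the fold limit, as was that of PIK3R1 (-0.35, FDR = 0.0327). EIF4EBP1 (0.51, FDR = 0.0626), PRR5 (0.47, FDR = 0.0572) and FLCN (0.33, FDR = 0.0715) missed the FDR threshold. TBC1D7 (0.499, FDR = 0.0436) and TPT1 (0.41, FDR = 0.0340) were then under the FDR threshold and below the fold limit. Of the 10 genes, DEPTOR kept its log2 fold change of 0.87 and passed the test (FDR = 0.0442, edgeR), and AKT1S1 was at -0.39 (FDR = 0.0399), under the fold limit.

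**Figure D5:**
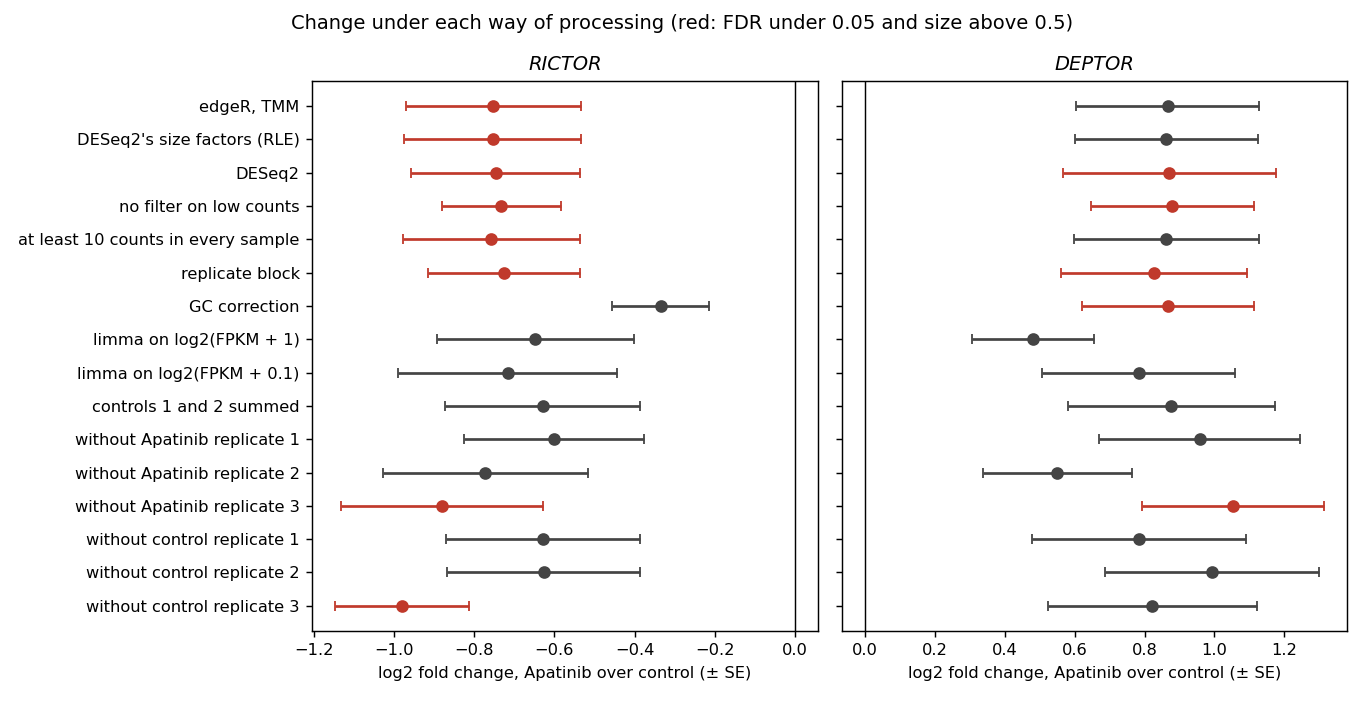
Log2 fold change (x axis, Apatinib over control, ± SE) of RICTOR and DEPTOR in the fit described and under each alternative of processing or with 1 sample left out (y axis). Red marks a DEG and dark grey a gene that was not called. RICTOR lay below 0 and DEPTOR above 0 in every setting drawn, while the calls changed with the setting.

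Several pathway genes had too few counts to be tested. PRKAA2 had 2 to 9 counts, EIF4EBP3 1 to 6 and DDIT4L 0 to 1. CASTOR1 had 2 to 10 counts but a deposited FPKM of 2.697 to 3.554, so that its counts and FPKM disagree. Such a mismatch was not confined to untested genes. CASTOR2, which was tested and not called (log2 fold change 0.49, FDR = 0.405, edgeR), had 12 to 30 counts beside a deposited FPKM of 5.30 to 7.75. PIK3R2 carried its symbol on 2 identifiers with at most 2 counts each, although the deposited FPKM of one was 17.8 to 27.96, so its counts were not used.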

How the data were processed

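RNA-seq of 3 Apatinib-treated and 3 untreated SW872 samples was analysed. The study's methods call the 3 samples of a group biological replicates, and p-values measure the spread between them. Controls 1 and 2 were so close that they may be technical repeats, and an alternative counted them as 1 sample. The authors deposited a table of raw gene counts (57773 genes) and, per sample, FPKM, which are normalized for transcript length and depth. The submitters' processing notes name CASAVA, STAR 2.7.1a and hg19, and the counting program and annotation are not given in the sources used here. One column (1) of the FPKM files that names no sample was not used, nor were coordinates, since the reference at hand was of another build.

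Counts were tested with edgeR 4.0.16 in R 4.3.3 (filterByExpr, TMM, quasi-likelihood F test, no covariate, Benjamini-Hochberg over 16290 genes). For a DEG both criteria of the study were required, FDR below 0.05 and absolute log2 fold change above 0.5. Library totals were 17043314 to 22067558 counts, CPM used these totals times the TMM factors (0.952 to 1.03), and the biological coefficient of variation was 0.149. Count depth limits precision for the genes with few counts, of which the text names DEPTOR and RRAGD. FPKM served to compare levels between genes. Alternatives were RLE factors, DESeq2 1.42.0, other filters (at least 1 count in all, or 10 in every sample), a replicate block, limma 3.58.1 on log2(FPKM + 1) or log2(FPKM + 0.1) at a mean FPKM above 0.5, glmTreat, controls 1 and 2 summed, each sample left out, and a loess offset on GC content (span 0.3, GENCODE longest transcripts, matched for 15819 of the genes tested, 97.1%). The scripts were tested on simulated data. Named were the 10 genes and, of each pathway list, the 3 genes of smallest p and every DEG. The 10 genes and the lists were chosen with earlier results of these data known.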

Additional observations from a re-analysis of the deposited data

How the results depend on the processing

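All values are counts or shares of DEGs, or log2 fold changes, beside 1 of the 10 genes (RICTOR), 11 of the pathway genes and 1866 genes in all. Of the 10 genes, limma on log2(FPKM + 1) or log2(FPKM + 0.1), glmTreat and summed controls 1 and 2 called 0 each (2 had an unadjusted p under 0.05 in limma and with summed controls), whereas DESeq2 and the fit without the filter called 2 (RICTOR and DEPTOR), and the GC correction called DEPTOR in place of RICTOR. Pathway DEGs numbered 5 with the GC correction, 3 with either limma fit, 0 with glmTreat and 3 with summed controls. DEGs among all genes then numbered 796 (5.03%) and 810 (5.12%) with limma, 74 with glmTreat and 292 (1.75%) with summed controls. The GC correction called 1373 of 15819 genes (8.68%), DESeq2 2054 of 32596 (6.3%) and the fit without the filter 2559 of 32596 (7.85%). Leaving out 1 sample gave 0 to 2 DEGs among the 10 genes, 0 to 12 among the pathway genes and 275 (without control 1) to 2594 (without control 3) among all genes. RICTOR stayed below 0 and DEPTOR above 0 in each of these fits that gave their fold change, glmTreat not among them. Signs turned near 0 for RPTOR (0.001 with DESeq2, 0.007 without the filter, 0.015 and 0.016 with limma), MLST8 (-0.169) and TSC2 (-0.125) with the GC correction, and MAPKAP1 (-0.04 with the GC correction, -0.048 and -0.051 with limma). Leaving out 1 sample moved MTOR from -0.121 to 0.07, RPTOR from -0.128 to 0.11, MLST8 from -0.034 to 0.166, TSC1 from -0.129 to 0 and MAPKAP1 from -0.137 to 0.267. The named pathway genes turned sign in 0 of 238 fits, and the 11 DEGs among them lost their call in 62 of 163, glmTreat not included in either total. The cause of these differences was not tested.

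The labels number the replicates 1 to 3 in both groups, but the deviations of same-numbered samples correlated at -0.398, 0.116 and -0.31, so the numbers were not taken as pairs. With the replicate number as a block, 2 of the 10 genes were DEGs (RICTOR and DEPTOR), 11 pathway genes (9 of them also without the block) and 2215 genes in all, and of the 10 genes MAPKAP1 changed sign (log2 fold change -0.005).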
